A study of Mus musculus with 17 samples.

Results

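Astrocytes purified from newborn mouse brain were cultured for 7 days with recombinant FGF10 or with its vehicle, PBS, and their transcripts were counted to ask which genes and pathways respond to this growth factor. The comparison took the 3 FGF10 and 4 PBS libraries by their sample labels, 7 of the 17 libraries in the series. The cells were immunopanned from whole brains of postnatal day 2 C57BL/6 mice, without olfactory bulbs, cerebellum and meninges, by depletion on CD45 and O4 and selection on HepaCAM. All cultures grew in serum-free medium that contained HB-EGF, a ligand of the EGF receptor. FGF10 was given at 50 ng ml-1 from 2 days in vitro. Libraries were read from the 3ʹ end of poly(A) RNA after removal of BC1 transcripts. The paper counts the 4 PBS and 3 FGF10 cultures as biological replicates. No label ties a culture to an animal or a litter, and the p-values therefore measure only the spread between these samples. The cells came from many brain regions at once, and the values are averages over all of them.

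FGF10 is a secreted ligand that binds, together with heparan sulfate, mainly the IIIb splice form of FGFR2 and more weakly that of FGFR1, forms best known from epithelia that face FGF10-secreting mesenchyme. Bound receptors phosphorylate FRS2, which recruits GRB2 and SOS and activates the RAS, RAF, MEK and ERK cascade, with side branches through PI3K and AKT and through phospholipase C gamma. Lasting ERK activity is usually read from the ETS factors *Etv4* and *Etv5* and from the feedback inhibitors of the DUSP, Sprouty and SPRED families. The FGF receptor best known in astrocytes is FGFR3. Counts of 3ʹ ends do not separate the IIIb and IIIc forms, so the form that binds FGF10 was not measured.

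PBS libraries held 32001914 to 48774253 counts on genes and FGF10 libraries 25988617 to 48961011. Levels are given as CPM, the counts of a gene scaled to a common library total, normalized between the 7 libraries by the trimmed mean of M values (TMM). Detection was uneven: genes whose mean elsewhere was 5 to 10 CPM were missing from a single library in 10.2% to 27.0% of cases, where 7.5 CPM corresponds to 195 to 367 reads. Zeros were most frequent in PBS replicates 1 and 4. Over the 7 libraries together, replicates 1 and 2 also differed from replicates 3 and 4, with 205 genes at an adjusted p under 0.05 in edgeR. This replicate set was a term of the fit. FGF10 has only replicate 3 in the second set. The label astrocyte was checked on defining markers. *Slc1a3*, a glutamate transporter, was at 1437, 1230.0, 1039 and 1163 CPM in PBS replicates 1 to 4 and at 1247, 999.9 and 988 CPM in FGF10 replicates 1 to 3. *Sox9*, a glial transcription factor, was at 1436, 1476, 966 and 935 and at 1513, 1561 and 985 CPM in the same order. Of 20 microglia and macrophage markers, 15 had at most 3 counts in every library and 1 was high enough to be tested. Markers of the oligodendrocyte lineage, with 16 of 20 tested, and of neurons, with 18 of 20 tested, were present in both groups.

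No gene passed the test. Of 13309 genes tested, 0 (0%) had an adjusted p under 0.05 in either direction (edgeR's quasi-likelihood test with the replicate set and Benjamini-Hochberg adjustment), and 0 (0%) passed in edgeR the threshold of the study, an adjusted p under 0.01 with an absolute log2(fold-change) above 1. An unadjusted p under 0.05 was reached by 391 genes (2.94%), of which 179 (1.34%) were higher and 212 (1.59%) lower with FGF10. The CPM values of the groups did not overlap for 646 genes (4.85%), with 382 (2.87%) higher and 264 (1.98%) lower in all 3 FGF10 libraries. Fitted values were above 0 for 51% of genes, with a median log2(fold-change) of 0.01. Other tools gave other counts on the same libraries, with 7 genes at an adjusted p under 0.05 by limma-voom and 1194 by DESeq2's Wald test with the replicate set or 102 without it. DESeq2 is the tool to which the study applied its threshold, and by that tool 973 genes passed it with the set and 65 without. The paper itself reports that neither FGF2 nor FGF10 gave a significant number of differentially expressed genes. The reason for this difference was not tested. Of the genes called by DESeq2, 903 of the 1194 and 87 of the 102 were genes with 3 counts or fewer throughout 1 of the groups. Its calls also held genes measured in both groups. *Fam102b*, described below, had an adjusted p of 1.2e-04 in DESeq2 with the set and 0.0050 without it. For *Araf* these DESeq2 values were 0.0042 and 0.27. Of the 126 genes named in this report and fitted, DESeq2 called 50 with the set and 19 without it. In edgeR 74 of the 126 had an unadjusted p under 0.05. Many were named for their values in these same libraries, which favors their being called, so these counts are no independent check.

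**Figure D1:**
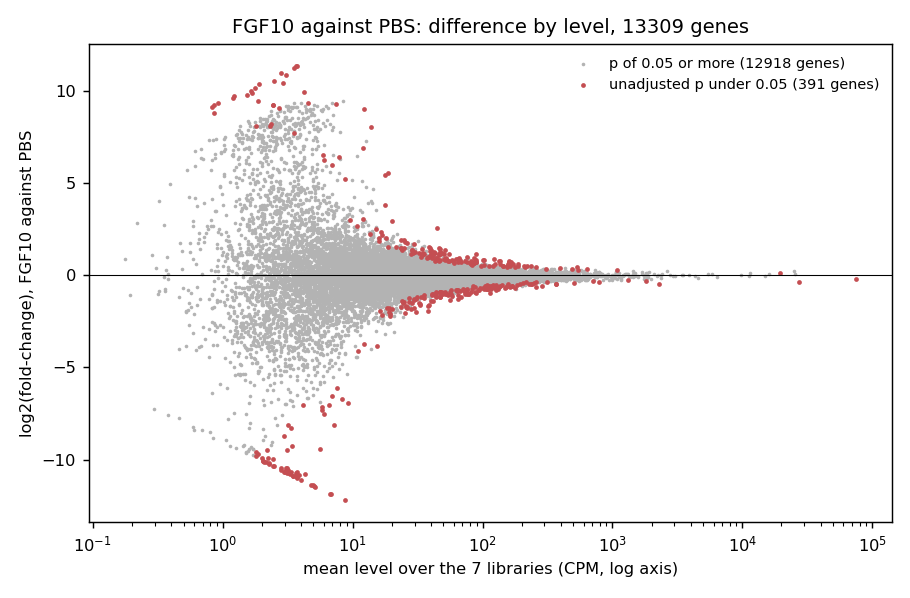
Log2(fold-change) with FGF10 against the mean level over the 7 libraries (CPM, log axis), with 1 point per gene for the 13309 genes tested and red points for the 391 genes at an unadjusted p under 0.05. The cloud is wide under 10 CPM and narrows toward 0 for abundant genes.

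What these libraries could resolve depended on the level of a gene. For the 1577 genes at 100 CPM or more, the median standard error of the log2(fold-change) was 0.21, and the 95% interval lay within -1 and 1 for 1466 of them (93.0%). At 500 CPM or more this held for 199 of 199 genes, and from 50 to 100 CPM for 53.9% of 1773 genes. Under 5 CPM it held for 0 of 2394 genes. A change of this size in a transcript at a few CPM was therefore not detectable at this precision, whereas the intervals of most abundant transcripts excluded it.

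The receptors through which FGF10 could act were present in both groups. *Fgfr1* was at 194, 196, 103 and 138 CPM in PBS replicates 1 to 4 and at 168, 148 and 83.7 CPM in FGF10 replicates 1 to 3. The groups overlapped, and the log2(fold-change) was -0.39 (95% interval -0.83 to 0.05), with negative values in both replicate sets. *Fgfr2*, the gene of the main FGF10 receptor, was at 43.8, 63.6, 55.4 and 51.8 CPM with PBS and at 21.2, 50.6 and 45.8 CPM with FGF10. All 3 FGF10 libraries lay below 3 of the 4 PBS libraries, and its log2(fold-change) was -0.44 (95% interval -1.29 to 0.42). *Fgfr3* was at 34.8, 61.5, 60.3 and 48.9 CPM with PBS and at 66.6, 76.5 and 75.3 CPM with FGF10. It was the receptor gene whose groups did not overlap, by a margin of about 5 CPM, and its log2(fold-change) of 0.53 had a 95% interval of -0.15 to 1.21. *Fgfrl1*, which encodes a receptor without a kinase domain, had a log2(fold-change) of 0.19 (-0.47 to 0.85). *Fgfr4* and *Kl*, the gene of the co-receptor Klotho, had no count in any library, and *Klb*, the gene of beta-Klotho, was seen at under 4 CPM in 2 FGF10 libraries and 1 PBS library.

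Of 22 FGF ligand genes, 6 were tested and 0 had an unadjusted p under 0.05. *Fgf1*, a ligand of all FGF receptors, was at 0, 0.113, 0.0286 and 11.5 CPM with PBS and at 1.51, 0.785 and 20.6 CPM with FGF10. The high values were those of PBS replicate 4 and FGF10 replicate 3, and the groups overlapped. *Fgf2* transcripts were at 0, 1.97, 11.3 and 0 CPM with PBS and at 1.24, 1.16 and 13.6 CPM with FGF10, again with the highest values in the second replicate set of both groups. *Fgf11*, *Fgf12*, *Fgf13* and *Fgf14*, which encode intracellular FGF homologs, had log2(fold-change) values of 0.18, -0.08, 1.21 and 4.03, each with a 95% interval that spanned 0. *Fgf10* itself had 60 counts in FGF10 replicate 1 and 0 in the other 6 libraries, where 0 allows at most 3 counts.

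The genes of the proteins that carry the signal from the receptor to ERK were measured with moderate precision and, except for *Crkl* and *Araf*, had intervals that included 0. All 26 members of a list of adaptors and effectors were tested. Their median log2(fold-change) was 0.03, with 15 higher and 11 lower, and 15 of 26 intervals lay within -1 and 1. *Grb2*, the adaptor that brings SOS to the receptor, had a log2(fold-change) of 0.05 (-0.34 to 0.45), and *Gab1*, a docking protein for PI3K, of 0.22 (-0.24 to 0.68). *Gab1* was at 110.1, 107, 98.6 and 89.6 CPM with PBS and at 124, 122 and 114 CPM with FGF10, without overlap and with a gap of about 4 CPM. *Mapk3*, the gene of an ERK kinase, was at -0.09 (-0.87 to 0.68) on the same scale. *Frs2*, the docking protein specific to FGF and neurotrophin receptors, had a wide interval, -0.07 (-2.13 to 1.99).

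*Crkl* and *Araf* were lower in every FGF10 library than in every PBS library. *Crkl*, which encodes an adaptor that couples FGF receptors to RAS and RAC signaling, was at 64.4, 48.0, 54.1 and 56.9 CPM with PBS and at 15.5, 25.3 and 41.7 CPM with FGF10. Its log2(fold-change) was -1.02 (-1.90 to -0.15), and it was -1.46 within replicates 1 and 2 and -0.41 for FGF10 replicate 3 against PBS replicates 3 and 4. *Araf*, the gene of a RAF kinase, which was named for its small p and is not on the list of adaptors, was at 98.1, 109, 122 and 66.6 CPM with PBS and at 53.5, 58.8 and 41.4 CPM with FGF10. The log2(fold-change) was -1.0 (-1.64 to -0.37), with -0.88 and -1.19 in the replicate sets. The adjusted p was 1 for both genes in edgeR. *Braf*, the gene of another RAF kinase, was at 0.25 (-0.60 to 1.10), not separable from 0.

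Heparan sulfate chains are part of the receptor complex of FGF10. Of 27 genes of proteoglycan cores and heparan sulfate enzymes, 24 were tested, with 15 higher and 9 lower and a median log2(fold-change) of 0.14. *Ext2*, a subunit of the polymerase that builds the chains, was at 36.8, 39.7, 53.4 and 38.7 CPM with PBS and at 71.0, 43.2 and 98.5 CPM with FGF10. The groups overlapped because FGF10 replicate 2 lay within the PBS values, and the log2(fold-change) was 0.79 (0.07 to 1.51). Its polymerase partner *Ext1* was at -0.05 (-0.69 to 0.59). *Ndst3*, a sulfotransferase gene, had 0 counts in the 3 FGF10 libraries and in PBS replicate 4, and 2.03, 10.4, 3.35 and 0 CPM in the 4 PBS libraries. The cores *Agrn*, *Sdc3* and *Gpc1* had log2(fold-change) values of 0.24, 0.17 and -0.19, and the chain-editing sulfatase *Sulf2* of 0.00 (-0.60 to 0.61).

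Among the genes that ERK usually raises, 1 of 21 tested, *Etv4*, had an unadjusted p under 0.05, beside the 2.94% of all genes. *Etv4* was at 13.2, 6.42, 31.7 and 41.0 CPM in PBS replicates 1 to 4 and at 39.8, 16.5 and 89.0 CPM in FGF10 replicates 1 to 3. Each FGF10 library lay above the PBS libraries of its own replicate set, and the pooled groups overlapped. The log2(fold-change) was 1.43 (0.35 to 2.51), 1.52 and 1.29 in the replicate sets and 1.01 to 1.69 without any 1 library, with an adjusted p of 1 in edgeR. The related factor *Etv5* was at 26.5, 42.3, 70.8 and 83.0 CPM with PBS and at 39.8, 11.5 and 104 CPM with FGF10, with FGF10 replicate 2 the lowest of all and replicate 3 the highest. *Etv1* had a log2(fold-change) of 0.25 (-0.53 to 1.03).

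The feedback inhibitors were near their PBS levels where they were well measured. *Spry2*, a Sprouty inhibitor of RAS activation, was at 60.9, 74.6, 89.0 and 113 CPM with PBS and at 63.9, 78.1 and 94.7 CPM with FGF10, and its log2(fold-change) was 0.00 (-0.55 to 0.56). *Spred1*, a second inhibitor of RAS activation, was at -0.33 (-0.77 to 0.11). *Dusp6*, the phosphatase that acts on ERK, was at 20.5, 26.5, 66.2 and 97.8 CPM with PBS and at 24.2, 39.3 and 46.0 CPM with FGF10. Its values followed the replicate set more than the treatment, and with the set in the fit the log2(fold-change) was -0.04 (-0.98 to 0.89). *Ccnd1*, the cyclin that ERK induces, was at 23.8, 57.4, 199 and 308 CPM with PBS and at 87.0, 33.1 and 180.4 CPM with FGF10, in both groups with the set as the larger difference, and its log2(fold-change) was 0.16 (-0.69 to 1.01). *Spry1* and *Spry4* were at -1.04 (-3.89 to 1.81) and -0.06 (-3.72 to 3.59), which leaves their direction undetermined. Over the 21 genes the median was 0.09, with 12 higher and 9 lower, and it was 0.20 in the first replicate set and -0.15 in the second.

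**Figure D2:**
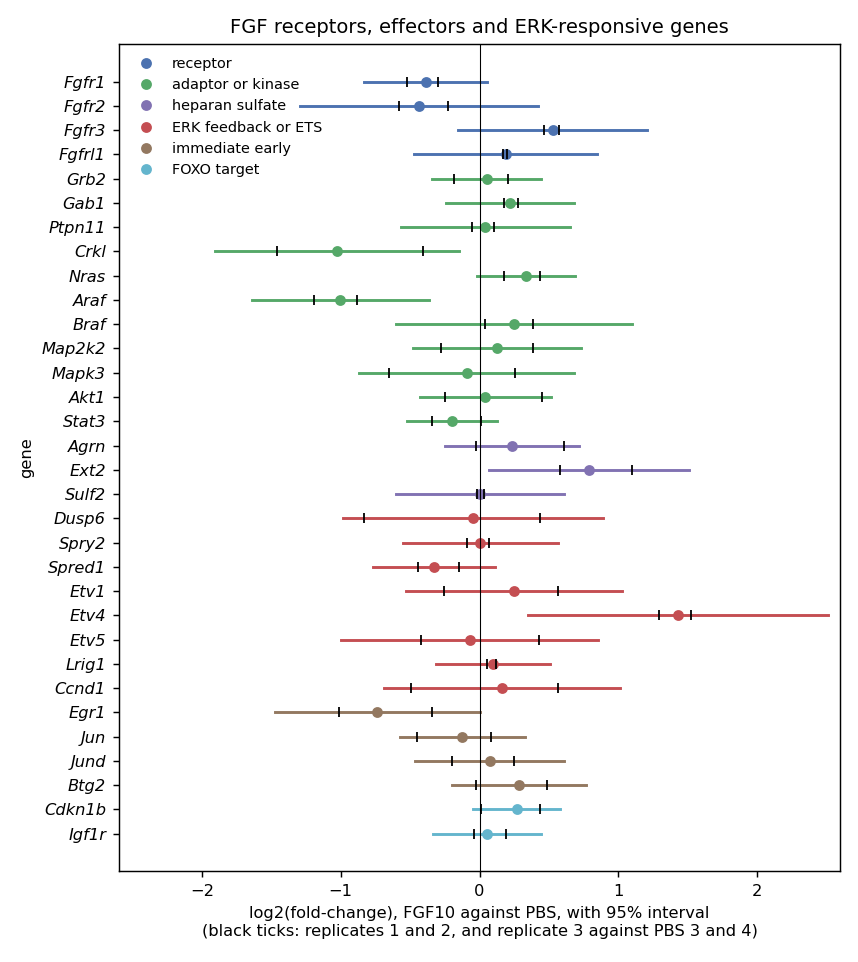
Log2(fold-change) with FGF10 against PBS for 32 genes of the FGF pathway, with dots for the estimate from 7 libraries, colored bars for its 95% interval and black ticks for the 2 replicate sets. The intervals of *Crkl* and *Araf* lie below 0 and those of *Ext2* and *Etv4* above 0, and the other 28 include 0.

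Early targets of ERK had no settled direction as a group, and the median of targets of the PI3K branch was near 0. Of 28 immediate early genes, which respond to ERK within minutes to hours, 23 were tested, with 10 higher and 13 lower, 0 at an unadjusted p under 0.05 and a median of -0.18. *Egr1*, a zinc finger factor of this class, was at 73.4, 45.5, 216 and 562 CPM with PBS and at 19.0, 39.9 and 307 CPM with FGF10. It was much higher in the second replicate set of both groups, and its log2(fold-change) was -0.74 (-1.47 to 0.00; unadjusted p = 0.0502 in edgeR). *Jun* and *Jund*, subunits of AP-1, were at -0.13 (-0.57 to 0.32) and 0.07 (-0.47 to 0.61). FOXO factors are excluded from the nucleus by AKT, and of 19 of their targets 8 were higher and 11 lower, with a median of -0.05. *Pdk4*, which encodes a mitochondrial kinase that blocks pyruvate oxidation, was at 19.2, 25.6, 13.8 and 23.9 CPM with PBS and at 7.09, 10.2 and 0.946 CPM with FGF10. Its groups did not overlap, and the log2(fold-change) was -2.35 (-4.88 to 0.18). *Cdkn1b*, a cyclin-dependent kinase inhibitor, and *Igf1r*, the IGF1 receptor, were at 0.27 (-0.04 to 0.58) and 0.05 (-0.34 to 0.44).

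The 12 genes with the smallest p-values among those above the PBS range in every FGF10 library, at a mean of 5 CPM or more, had log2(fold-change) values of 0.67 to 1.51. They were chosen by this contrast, so that their separation and p-values describe the choice. *Fam102b*, since renamed *Eeig2*, was at 27.9, 22.3, 30.0 and 31.4 CPM with PBS and at 69.6, 76.2 and 72 CPM with FGF10. The FGF10 libraries lay within 7 CPM of each other and at more than 2-fold the highest PBS library, and the log2(fold-change) was 1.42 (0.66 to 2.17). *Med24*, a subunit of the Mediator complex that links transcription factors to RNA polymerase II, was at 32.4, 18.5, 30.9 and 21.1 CPM with PBS and at 73.8, 75.7 and 70.6 CPM with FGF10. Its log2(fold-change) was 1.51 (0.70 to 2.32), and both genes had values above 1.2 in each replicate set.

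*Lamb2*, the laminin beta chain of the pial and perivascular basement membranes that astrocyte endfeet touch, was at 155, 123, 127 and 112 CPM with PBS and at 188, 240.4 and 212 CPM with FGF10. The log2(fold-change) was 0.71 (0.28 to 1.13). *Vcam1*, an adhesion molecule for integrin-bearing cells, was at 46.0, 74.3, 82.1 and 29.4 CPM with PBS and at 126, 102 and 160.3 CPM with FGF10, 1.17 (0.43 to 1.90) on the log2 scale. *Aldh2*, the mitochondrial aldehyde dehydrogenase, was at 98.7, 101, 116 and 109 CPM with PBS and at 158, 125 and 247 CPM with FGF10. FGF10 replicate 3 was highest, and without it the log2(fold-change) went from 0.76 to 0.49. *Baz1b*, which encodes a chromatin remodeling subunit, *Epn1*, an endocytic adaptor, and *Pde1b*, a calmodulin-dependent phosphodiesterase of cyclic nucleotides, were at 0.88, 0.67 and 0.86. The remaining genes of this group were *Cldnd1*, a claudin-domain gene, *Tex9*, *Tmem19* and the coactivator gene *Ncoa5*, at 1.01, 1.28, 1.31 and 1.36. *Ncoa5* and *Tex9* differed most between the replicate sets, at 1.93 and 0.39 for *Ncoa5* and 1.59 and 0.79 for *Tex9*.

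The 12 leading genes below the PBS range were chosen in the same way. *Rpl35*, a protein of the large ribosomal subunit, had the smallest p of all 13309 genes (7.56e-04 in edgeR, adjusted p of 1). It was at 2183, 2248, 3218 and 2786 CPM with PBS and at 1676, 1721 and 2079 CPM with FGF10, a log2(fold-change) of -0.44 (-0.66 to -0.22). The gap between the groups was narrow. Ribosomal protein genes have near-identical pseudogenes to which reads can be lost, and whether such loss differed between the groups was not tested. *Hus1*, a subunit of the clamp that senses DNA damage, was at 62.2, 29.3, 58.2 and 76.0 CPM with PBS and at 6.24, 15.7 and 20.3 CPM with FGF10. *Dnttip1*, a subunit of a histone deacetylase complex, was at 50.3, 43.1, 48.3 and 75.4 CPM with PBS and at 14.9, 19.0 and 15.8 CPM with FGF10. The log2(fold-change) values were -1.92 (-3.00 to -0.85) and -1.66 (-2.61 to -0.71). *Ssh2*, a phosphatase that activates the actin-severing protein cofilin, was at 37.7, 42.2, 32.9 and 58.2 CPM with PBS and at 10.9, 13.3 and 12.7 CPM with FGF10, a log2(fold-change) of -1.77 (-2.90 to -0.65).

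*Dnajb6*, a chaperone gene, was at 115, 53.3, 89.5 and 82.6 CPM with PBS and at 42.7, 42.7 and 25.8 CPM with FGF10, and *Xpo6*, the nuclear exporter of actin, at 109.8, 83.5, 70.4 and 103 and at 53.4, 52.1 and 37.4 CPM. Their log2(fold-change) values were -1.27 (-2.04 to -0.50) and -1.01 (-1.64 to -0.37). *Ndufb9*, a subunit of respiratory complex I, was at -0.73 (-1.18 to -0.28). *Wdr61*, *Tceal8* and *Cbx3*, the last encoding the heterochromatin protein HP1 gamma, were at -0.97, -0.76 and -0.66. The other 2 leading genes, *Araf* and *4930518I15Rik*, are described with the FGF pathway and with the transcripts absent from 1 group. All 24 leading genes had 1 sign in both replicate sets and in every fit without 1 library. The rule that chose them, with every FGF10 library beyond every PBS library, largely fixed these signs in advance. Two-sided exact permutation of 3 against 4 libraries cannot give a p below 0.0571, which each of these genes reached by the rule that chose it.

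**Figure D3:**
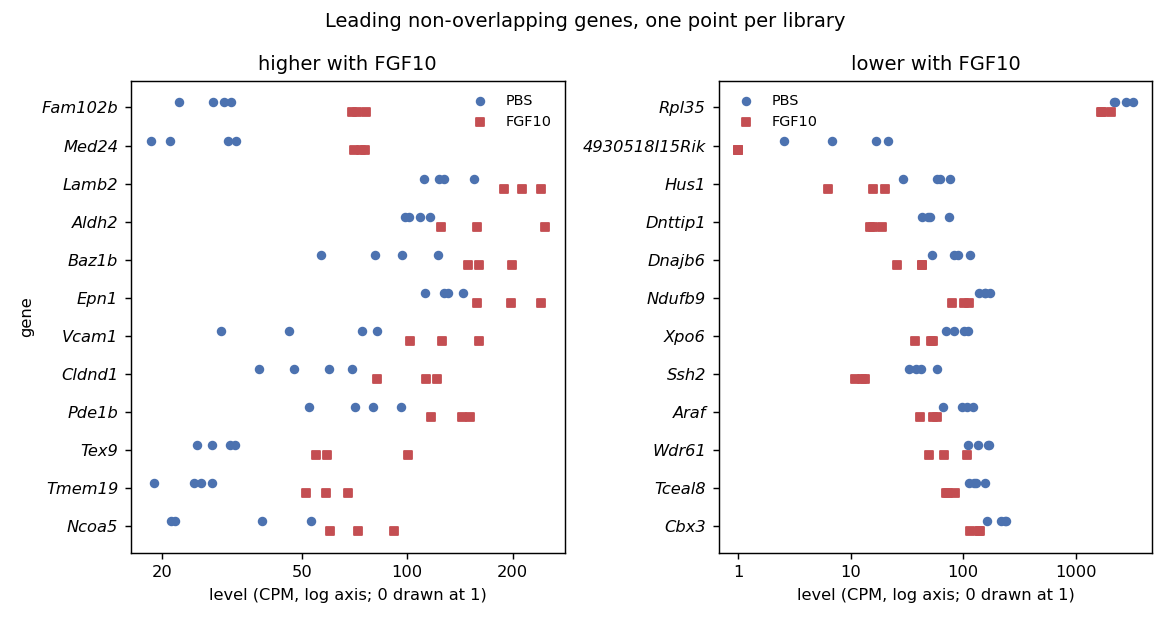
Levels (CPM, log axis, with 0 drawn at 1) of the 12 leading genes above and the 12 below the PBS range, with 1 point per library, blue circles for the 4 PBS libraries and red squares for the 3 FGF10 libraries. The groups do not overlap because genes were chosen for this, and the gap is wide for *Fam102b*, *Med24*, *Dnttip1* and *Ssh2* and narrow for *Rpl35*, *Wdr61* and *Epn1*.

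Some genes were read in 1 group and nearly absent from the other. These were few of the 56691 gene rows, of which 37261 had no count in the 7 libraries. In 30 genes every PBS library had at most 3 counts and every FGF10 library more, and in 16 genes the reverse held. *Sema3c*, a secreted semaphorin that guides axons, had 244, 357 and 306 counts in FGF10 replicates 1 to 3 and 0 in all PBS libraries, which, with 3 counts per library as the floor, is at least 101-fold higher. *Stox1*, a winged helix factor, had 152, 496 and 389 counts with FGF10, and *Tmem37*, a gene related to calcium channel subunits, had 168, 378 and 425 counts. Both had 0 in every PBS library, so that they were at least 107-fold and 104-fold higher. *A3galt2*, a glycosyltransferase gene, and *Gm37584* had 215, 206 and 274 and 244, 725 and 196 counts with FGF10, against 0 to 2 counts with PBS. In the other direction, the uncharacterized transcript *4930518I15Rik* had 836, 761, 90 and 212 counts in PBS replicates 1 to 4 and at most 1 with FGF10, at least 139-fold lower. *Nipal2*, *Cpne8* and *Gm45250* had 670, 128, 192 and 170, 876, 496, 133 and 118 and 88, 95, 389 and 161 counts with PBS and at most 1 with FGF10. All 9 genes had an adjusted p of 1 in edgeR, and the floor is a limit on counting error alone, where up to 27.0% of genes at 5 to 10 CPM could be missing from a library.

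Genes that define astrocytes were mostly close to their PBS level. Of 30 identity genes, 29 were tested, with 16 higher and 13 lower and a median log2(fold-change) of 0.04 that ran from -0.02 to 0.05 without any 1 library. The 95% interval lay within -1 and 1 for 21 of them. *Glul*, glutamine synthetase, was at 1313, 1415, 942 and 976 CPM with PBS and at 1417, 1411 and 936 CPM with FGF10, and its log2(fold-change) was 0.02 (-0.22 to 0.25). *Apoe*, *Mlc1* and *Aldoc* were at 0.07 (-0.14 to 0.28), -0.10 (-0.34 to 0.14) and -0.07 (-0.34 to 0.20). *Glul* and these genes were chosen after their values were seen, and the estimates of the 29 tested genes ran from -0.96 to 1.42. *Gfap*, the intermediate filament that marks reactive and white matter astrocytes, was at 255, 318, 67.9 and 45.6 CPM with PBS and at 320.2, 261 and 88.5 CPM with FGF10. The 3 libraries of the second replicate set were under 90 CPM and the other 4 above 250 CPM, and the log2(fold-change) was 0.28 (-0.19 to 0.74).

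Within this program 2 of 29 genes had an unadjusted p under 0.05, beside 2.94% of all genes. *Aqp4*, the water channel of endfeet, was at 136, 88.3, 115 and 57.1 CPM with PBS and at 185, 192 and 158 CPM with FGF10. The groups did not overlap, and the log2(fold-change) was 0.80 (0.24 to 1.36), 0.75 and 0.88 in the replicate sets and 0.64 to 0.98 without any 1 library. *Slc1a2*, the glutamate transporter GLT-1, was at 476, 482, 429 and 273 CPM with PBS and at 384, 298 and 255 CPM with FGF10, a log2(fold-change) of -0.48 (-0.87 to -0.09). Its groups overlapped through PBS replicate 4. In edgeR the adjusted p was 1 for both. In bulk RNA, more transcript per cell and more cells of a kind cannot be told apart.

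Lists of astrocyte maturation and progenitor genes had medians near 0. Of 29 maturation genes tested, 13 were higher and 16 lower, with a median of -0.08. *Rorb*, a nuclear receptor, was at 136, 108, 113 and 176 CPM with PBS and at 74.8, 75.4 and 111 CPM with FGF10, -0.57 (-1.09 to -0.05) on the log2 scale, with an overlap between PBS replicate 2 and FGF10 replicate 3. *Slc6a11*, a GABA transporter, had a log2(fold-change) of 0.08 (-0.27 to 0.43). Among 24 radial glia and progenitor genes, *Msi1*, an RNA-binding protein of neural progenitors, was at 76.3, 139, 104 and 88.4 CPM with PBS and at 169, 143 and 161 CPM with FGF10. It was above the PBS range in every FGF10 library, by 4 CPM in replicate 2, with a log2(fold-change) of 0.62 (0.10 to 1.14). The list median was 0.03. The 24 reactive astrocyte genes tested had a median of 0.20, 0.16 and -0.21 in the replicate sets and -0.22 to 0.42 without any 1 library, with 0 genes at an unadjusted p under 0.05, and their summed level was 1661 to 2043 CPM with PBS and 2029 to 2277 CPM with FGF10, which overlap narrowly.

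Among genes of astrocyte function, *Aldh5a1*, which breaks down GABA as succinate semialdehyde dehydrogenase, was at 5.92, 20.2, 25 and 19.2 CPM with PBS and at 40.1, 25.4 and 63.7 CPM with FGF10. The groups nearly touched, at 25 and 25.4 CPM, and the log2(fold-change) was 1.41 (0.20 to 2.61) in a list of glutamate and GABA handling with 5 genes higher and 10 lower. *Nlgn2*, an adhesion protein of synapses, was at 48.5, 84.6, 46.9 and 89.8 CPM with PBS and at 78.5, 126 and 147 CPM with FGF10, 0.82 (0.14 to 1.5) on the log2 scale with overlapping groups. *S100a11*, a calcium-binding protein, was at 149, 168, 107 and 91.7 CPM with PBS and at 252, 165 and 145 CPM with FGF10, 0.45 (0.00 to 0.91). The SOX and NFI transcription factors, which set glial fate, had a median of 0.04 over 17 genes, 16 of them with an interval within -1 and 1 and 0 at an unadjusted p under 0.05.

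Mitosis and DNA replication genes were among the lists with the highest medians, and mitosis genes also differed widely between the replicate sets. Of 32 mitosis genes 23 were higher and 9 lower, with a median log2(fold-change) of 0.46 that was 0.52 within replicates 1 and 2 and 0.12 for FGF10 replicate 3 against PBS replicates 3 and 4. The direction depended on the set term, since without it the median was -0.27. *Plk1*, a mitotic kinase, was at 0.425, 0.704, 80.2 and 123 CPM with PBS and at 4.84, 11.9 and 90.1 CPM with FGF10. *Ccnb1*, cyclin B1, was at 0.0608, 0, 33.3 and 48.0 CPM with PBS and at 9.26, 5.29 and 34.8 CPM with FGF10. In replicates 1 and 2 both were nearly absent with PBS and present at 4.84 to 11.9 CPM with FGF10, whereas the second set had 33.3 to 123 CPM in both groups. *Kif20a*, a kinesin of cytokinesis, went the other way in the first set, at 8.08, 12.9, 73.8 and 68.3 CPM with PBS and at 0.698, 3.06 and 61.3 CPM with FGF10. These 3 of 32 had an unadjusted p under 0.05, beside 2.94% of all genes, and without the set term *Plk1* and *Ccnb1* were at -0.52 and -0.31. The more abundant *Top2a* and *Mki67* had log2(fold-change) values of 0.27 (-0.29 to 0.82) and 0.18 (-0.61 to 0.96). The summed CPM of the list was 337 to 3128 with PBS and 582 to 2959 with FGF10, with a mean of 1691 and 1390 CPM, so that the sum was lower with FGF10 although the median gene was higher.

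Of 30 genes of DNA replication 21 were higher, with a median of 0.34, 0 genes at an unadjusted p under 0.05 and 2 intervals within -1 and 1. *Mcm7*, a subunit of the replicative helicase and one of the few well-measured members, was at 0.01 (-0.40 to 0.42), and *Lig1*, a DNA ligase, at 0.37 (-0.20 to 0.94). The 15 regulators of G1 had a median of 0.11. Targets of p53 were lower in 12 of 16 cases, with a median of -0.17 and 0 genes at an unadjusted p under 0.05.

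Metabolic lists were centered near 0, with single exceptions. The 48 nuclear-encoded genes of oxidative phosphorylation had a median of 0.03, and 41 of 48 intervals lay within -1 and 1. *Ndufb9*, described above, was the member at an unadjusted p under 0.05. Among 25 genes of glycolysis and glycogen 17 were higher (median 0.19), yet *Pfkm*, a phosphofructokinase, was the member with the smallest p and was lower. *Pfkm* was at 217, 154, 132 and 108 CPM with PBS and at 98.5, 111 and 75.4 CPM with FGF10, a log2(fold-change) of -0.76 (-1.24 to -0.29), with an overlap of 3 CPM between PBS replicate 4 and FGF10 replicate 2. For cholesterol synthesis 16 of 22 genes were higher, with a median of 0.25 that was 0.39 in the first replicate set and 0.00 in the second. The best measured of them, *Hmgcs1*, was at 0.01 (-0.38 to 0.40).

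In lipid handling *Fabp5*, a fatty acid binding protein, was at 147, 138, 138 and 173 CPM with PBS and at 53.1, 91.4 and 128 CPM with FGF10, below the PBS range in all 3 libraries and at -0.69 (-1.24 to -0.14) on the log2 scale. *Lpl*, lipoprotein lipase, had 3 counts or fewer throughout the PBS group and was at 5.35, 5.39 and 5.73 CPM with FGF10. NRF2 targets and glutathione genes were higher in 18 of 24 cases with a small median of 0.11, which was 0.16 and 0.13 in the replicate sets and positive without any 1 library. *Txnrd1*, thioredoxin reductase, was at 66.1, 90.7, 89.5 and 95.9 CPM with PBS and at 103, 162 and 112 CPM with FGF10, a log2(fold-change) of 0.57 (0.00 to 1.13).

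The mitochondrial ribosomal RNA *mt-Rnr2*, the most abundant transcript, was at 81164, 84049, 71905 and 77108 CPM with PBS and at 77631, 73249 and 58744 CPM with FGF10, a log2(fold-change) of -0.21 (-0.34 to -0.09). FGF10 replicate 3 was the lowest and the other libraries overlapped. *mt-Nd4*, a mitochondrially encoded subunit of complex I, was at 0.15 (0.01 to 0.30).

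Genes of translation were measured tightly. Of 77 cytosolic ribosomal protein genes 35 were higher and 42 lower, with a median of -0.01, and the interval lay within -1 and 1 for 75. *Rpl35*, *Rpl6* and *Rpl14* were lower, with log2(fold-change) values of -0.44, -0.43 (-0.78 to -0.07) and -0.35 (-0.67 to -0.04), and *Rps15a* and *Rpl13* higher, at 0.35 (0.03 to 0.67) and 0.31 (0.01 to 0.60), which are the 5 members of 77 at an unadjusted p under 0.05, beside 2.94% of all genes and 6.53% of the 199 genes at 500 CPM or more. *Ncl*, the nucleolar protein nucleolin, and *Nop56*, a core protein of methylation-guiding small nucleolar particles, were at -0.27 (-0.51 to -0.03) and -1.15 (-2.09 to -0.21) in a list of ribosome biogenesis genes with a median of 0.03.

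Heat shock genes were lower in 10 of 14 cases. *Hsp90ab1*, a cytosolic HSP90, was at 1423, 1481, 2557 and 2607 CPM with PBS and at 1203, 1191 and 2128 CPM with FGF10. Each FGF10 library lay below the PBS libraries of its replicate set, and the log2(fold-change) was -0.28 (-0.49 to -0.06), with -0.28 in both sets. *Dnaja1*, a co-chaperone, was at -0.40 (-0.79 to -0.01), and the list median was -0.08 (-0.21 to -0.07 without any 1 library). Of 25 lysosome and autophagy genes 18 were lower, with a median of -0.08 (-0.14 to -0.02). The member at an unadjusted p under 0.05 was *Gabarapl1*, which encodes an autophagosome protein, at -0.37 (-0.73 to -0.01). Of 21 genes of the unfolded protein and integrated stress response, *Ppp1r15a*, a stress-induced phosphatase subunit, was at 46.8, 34.2, 8.15 and 14.0 CPM with PBS and at 47.4, 80.1 and 29.1 CPM with FGF10, 0.96 (0.01 to 1.91) on the log2 scale with overlapping groups.

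Matrix genes held 4 of 19 members at an unadjusted p under 0.05, 2 in each direction, beside 2.94% of all genes. *Lamb2* was higher, as described, whereas *Lama5*, a laminin alpha chain, was at 31.5, 20.5, 58.8 and 58.8 CPM with PBS and at 16.5, 8.69 and 19.5 CPM with FGF10, a log2(fold-change) of -1.26 (-2.39 to -0.13). The groups of both laminin genes did not overlap. The 2 chains of collagen I went apart at very low levels. *Col1a1* was at 17.5, 2.84, 0 and 1.53 CPM with PBS and at 0 with FGF10, and *Col1a2* at 0 with PBS and at 0.620, 1.71 and 3.44 CPM with FGF10. Among 26 actin and stress fiber genes, *Tagln2*, an actin-bundling protein, was at 41.0, 68.2, 53.1 and 64.9 CPM with PBS and at 95.4, 85.6 and 108 CPM with FGF10. *Vcl*, the focal adhesion protein vinculin, was at 15.7, 37.6, 9.87 and 12.6 CPM with PBS and at 43.7, 50.3 and 41.0 CPM with FGF10. Both lay above the PBS range in all FGF10 libraries, at 0.79 (0.18 to 1.4) and 1.26 (0.14 to 2.38), while *Myl6*, a myosin light chain, was at -0.47 (-0.86 to -0.09).

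The interferon and MHC class I lists had the lowest and the highest median. Of 28 interferon-induced genes 13 were tested, with 4 higher and 9 lower and the lowest median of all lists with 10 or more tested genes, -0.37. It was -0.72 in the first replicate set and 0.09 in the second, and -0.74 to 0.30 without any 1 library, highest without PBS replicate 2. *Stat2*, an interferon signal transducer, was at 21.6, 25.4, 28.0 and 23.1 CPM with PBS and at 15.1, 1.4 and 6.67 CPM with FGF10. *Gbp7*, an interferon-induced GTPase, was at 16.8, 18.9, 25.1 and 33.8 CPM with PBS and at 11.9, 11.5 and 12.9 CPM with FGF10. They were the 2 members of 13 without overlap, both lower, beside 1.98% of all genes without overlap and lower. Both were named after their values were seen, and 0 of the 13 had an unadjusted p under 0.05 in edgeR. MHC class I and antigen processing had the highest median, 0.52, over 10 genes, and -0.05 to 0.55 without any 1 library, lowest without PBS replicate 1. *Tapbp*, the peptide-loading protein tapasin, was at 55, 55.2, 42.2 and 46.9 CPM with PBS and at 68.4, 106 and 77.6 CPM with FGF10, a log2(fold-change) of 0.72 (0.09 to 1.34). *B2m* and *H2-K1*, the subunits of the MHC class I molecule, were at 0.36 (-0.16 to 0.87) and -0.14 (-0.75 to 0.46).

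Other signaling pathways were followed by their components and targets. The hedgehog, BMP, TGF-beta, WNT, Notch and YAP lists had medians of 0.03, -0.13, 0.13, 0.18, 0.01 and 0.20, in that order. *Itgb5*, an integrin that activates latent TGF-beta, was at 159, 147, 98.1 and 101 CPM with PBS and at 87.4, 106 and 72.4 CPM with FGF10, -0.58 (-1.06 to -0.11) on the log2 scale with overlap in FGF10 replicate 2. *Jak1*, the kinase of gp130 and interferon receptors, was at 82.5, 78.6, 77.0 and 87.3 CPM with PBS and at 125, 104 and 124 CPM with FGF10. Its groups did not overlap, and the log2(fold-change) was 0.54 (0.05 to 1.03) with 0.50 and 0.59 in the replicate sets. *Irx2*, a homeobox factor of the midbrain and hindbrain, was at 0, 7.71, 10.01 and 8.60 CPM with PBS and had 0 counts with FGF10 and in PBS replicate 1. *Nrg1*, an EGF family ligand, had 0 counts in all PBS libraries and was at 4.81, 12.8 and 3.86 CPM with FGF10.

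Summed markers of other cell types overlapped between the groups. The summed level of the 16 oligodendrocyte lineage markers was 2329.8 to 4340.5 CPM with PBS and 2334 to 3836 CPM with FGF10, and that of the 18 neuron markers 973 to 1303 and 1040.0 to 1359 CPM. For ependymal and motile cilia markers, 17 of 20 tested, the sums were 333 to 776 and 288 to 1012 CPM and the median log2(fold-change) was -0.31 (-1.21 to 0.21 without any 1 library, highest without PBS replicate 3), and for 4 endothelial and mural markers 75.7 to 115 and 73.4 to 94.7 CPM. *Gap43*, a growth cone protein of neurons that glial progenitors also make, was at 21.2, 15.7, 39.6 and 77.6 CPM with PBS and at 3.95, 7.83 and 25.4 CPM with FGF10, a log2(fold-change) of -1.47 (-2.69 to -0.24). It was the marker of this list at an unadjusted p under 0.05, and FGF10 replicate 3 overlapped with the PBS libraries. The part of these cells in the other results was not tested.

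Over all 47 lists with at least 10 tested genes, the median log2(fold-change) lay between -0.25 and 0.25 for 42. It was above 0.25 for MHC class I, mitosis and DNA replication and below -0.25 for interferon-induced genes and ependymal markers. The median kept 1 sign in every fit without 1 library for 11 lists, 9 above 0 and 2 below, and these were the lists of mitosis, DNA replication, cholesterol synthesis, neuron markers, glycolysis, matrix, WNT targets, NRF2 targets and serine and one-carbon enzymes above 0, and of heat shock and lysosome genes below 0. Of these, 3 turned under other settings, with medians of -0.27 for mitosis and -0.04 for cholesterol synthesis without the set term and of -0.55 for neuron markers in the second replicate set. The summed CPM of the groups overlapped for all 47 lists. Of the 962 list genes tested, 47 (4.89%) had an unadjusted p under 0.05, beside 2.94% of all genes. This share was larger for abundant genes, at 1.16% from 5 to 20 CPM and 6.21% at 100 CPM or more, and the list genes were not matched to all genes on level.

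**Figure D4:**
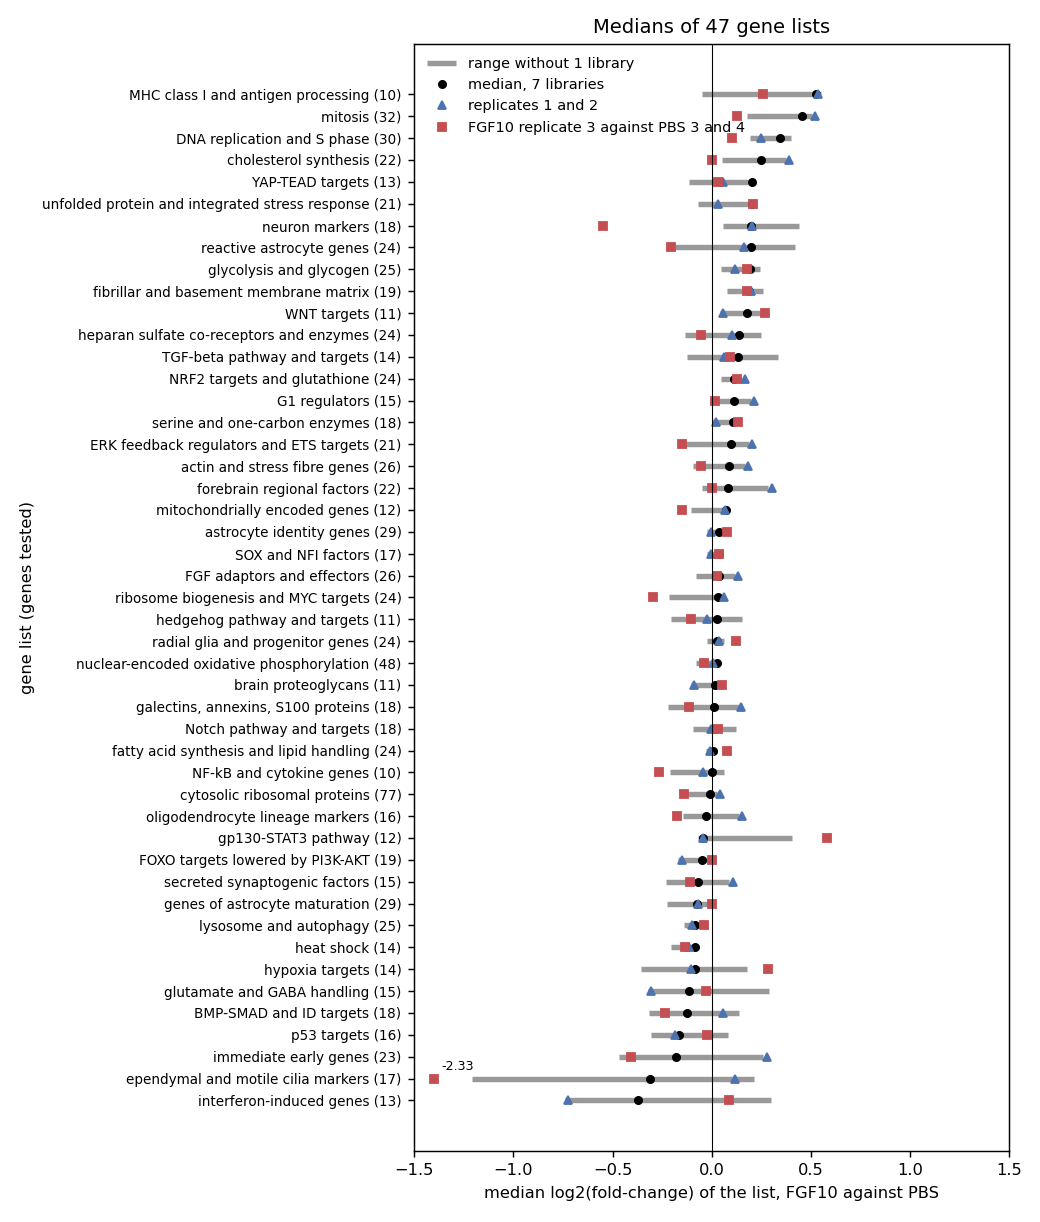
Median log2(fold-change) with FGF10 against PBS for the 47 gene lists with at least 10 tested genes (number tested in brackets). Black dots are medians from 7 libraries, gray bars the range without any 1 library, blue triangles the medians within replicates 1 and 2 and red squares those of FGF10 replicate 3 against PBS replicates 3 and 4, and 1 value beyond the axis, -2.33, is written beside its point.

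The replicate sets allowed the comparison to be made on separate libraries, and their effects were not correlated across genes. Over all 13309 genes, Pearson's r between the log2(fold-change) within replicates 1 and 2 and that of FGF10 replicate 3 against PBS replicates 3 and 4 was -0.03, and over the 3350 genes at 50 CPM or more it was 0.02. The points share 1 normalization per library, and genes are not independent replicates, so no test was made of these values. The sign was shared by 6623 genes (49.8%). A test of the difference between the sets found 0 genes (0%) at an adjusted p under 0.05 and 554 (4.16%) at an unadjusted p under 0.05 in edgeR. The medians of 21 of the 47 lists had the same sign in both sets.

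**Figure D5:**
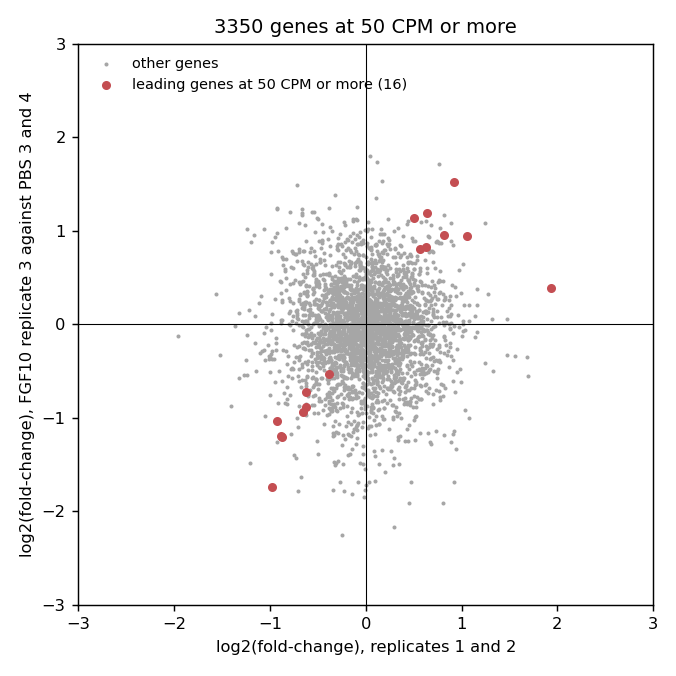
Log2(fold-change) of FGF10 against PBS within replicates 1 and 2 (horizontal) and for FGF10 replicate 3 against PBS replicates 3 and 4 (vertical), with 1 point per gene for the 3350 genes at 50 CPM or more and red points for the 16 leading genes among them. The cloud is round (r = 0.02), and the leading genes lie along the diagonal, as their choice requires all libraries of a group to differ in 1 direction.

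The same 4 PBS libraries served as controls for cultures given FGF2 at 50 ng ml-1, and values with FGF2, normalized over 11 libraries, are set beside those with FGF10. *Fam102b* was at 35.4, 32.4, 49.3 and 36.9 CPM in FGF2 replicates 1 to 4, below all FGF10 libraries. *Med24* was at 37.0, 15.1, 21.4 and 82.8 CPM, with 1 library above the FGF10 range. *Etv4* was at 25.4, 11.1, 96.8 and 55.9 CPM and *Aqp4* at 117, 171, 51.0 and 39.5 CPM with FGF2, in both cases with values inside and outside the FGF10 range. *Crkl* and *Araf* were at 65.0, 27.7, 43.0 and 64.5 and at 71.6, 32.3, 77.0 and 65.6 CPM. Because the controls are shared, no comparison between the FGF10 and FGF2 effects was made from these values.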

How the data were processed

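RNA of cultured astrocytes was measured with Lexogen QuantSeq 3ʹ libraries in 3 FGF10 and 4 PBS cultures. The authors deposited read counts per gene, obtained with STAR. The genome build GRCm38 comes from the submitters' processing notes, and the annotation, strand setting and handling of PCR duplicates are not given in the sources used here. Of 56805 rows in the deposited table, 114 spike-in rows were left out, with at most 3 counts per library, and 37261 of the other 56691 rows had no count in the 7 libraries. Columns of another experiment, 6 in number, were not used. Gene totals of 25988617 to 48961011 counts per library set the precision, and every interval and floor covers counting error or the spread between these libraries only.

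Genes were kept with filterByExpr (minimum count 10, minimum total 15), scaled by TMM and tested with edgeR 4.0.16 (quasi-likelihood F test, R 4.3.3) with treatment and replicate set, numbers 1 and 2 against 3 and 4, as terms. P-values were adjusted by Benjamini-Hochberg over 13309 genes, with a call at an adjusted p under 0.05. The 95% intervals use the t quantile of the degrees of freedom of the fit, with a median of 13.4. The common biological coefficient of variation was 113%. No pair of libraries agreed within sampling noise. Single genes were also compared by two-sided exact permutation of CPM. Alternatives were no set term, a replicate block, DESeq2 size factors, other filters, all 11 PBS, FGF2 and FGF10 libraries, DESeq2 1.42.0, limma-voom 3.58.1, replicates 1 and 2 alone, and leaving out each library.

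The comparison, the 54 gene lists (1164 genes, 1159 in the table, 962 tested) and the tests were chosen with earlier results of these data known. Named were the members of the FGF lists, the 12 non-overlapping genes per direction with the smallest p at a mean of 5 CPM or more, up to 5 genes per direction at or under 3 counts in every library of 1 group and above it in the other, and list members at an unadjusted p under 0.05. *Aldoc*, *Apoe*, *B2m*, *Gbp7*, *Gfap*, *Glul*, *H2-K1*, *Hmgcs1*, *Lig1*, *Mcm7*, *Mki67*, *Mlc1*, *Slc1a3*, *Slc6a11*, *Sox9*, *Stat2* and *Top2a* fall outside this rule and were chosen after their values were seen. A few genes that this rule names are not reported here. Of gene symbols, 77 stand on more than 1 row.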

Additional observations from a re-analysis of the deposited data

Results flagged for a closer look

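Of 132 values checked for a library far from the other 3 PBS libraries, 5 stood apart, and chance flags about 1 in 20 such groups. *Slc6a11* was at 260.1 CPM in PBS replicate 2 and at 343 to 352 CPM in the other PBS libraries. *Fgf1* was at 11.5 CPM in PBS replicate 4 and at 0.113 CPM or less in the others. *Col1a1* was at 17.5 CPM in PBS replicate 1, against at most 2.84 CPM in the others. *Klb* was at 0.400 CPM and *Gm37584* at 0.0572 CPM (2 counts) in PBS replicate 3, and both were at 0 in the others. A gene read in only 1 of the PBS libraries is always flagged by this rule, so the rate of 1 in 20 does not apply to it. Groups of 3 libraries were not checked in this way.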

How the results depend on the processing

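The count of 0 genes at an adjusted p under 0.05 was the same in all 7 other edgeR settings and in all 7 edgeR fits without 1 library, with 0.196 as the smallest adjusted p among them, and an adjusted p under 0.1 with no minimum fold also called 0. Other tools differed. DESeq2 with the replicate set called 662 genes higher and 532 lower, with 973 past the threshold of the study and 1658 higher and 1187 lower at an unadjusted p under 0.05. In 825 of its 1194 genes, 1 library held over 90% of the CPM summed over the libraries. DESeq2 without the set called 28 higher and 74 lower, with 65 past that threshold and 356 and 570 at an unadjusted p under 0.05. Limma-voom called 4 higher and 3 lower, with 451 higher at an unadjusted p under 0.05, and its 7 genes included *mt-Rnr2*, *mt-Nd4* and *Rpl35*. The reason for these differences was not tested. At an unadjusted p under 0.05, the fits without 1 library gave 124 to 228 genes higher and 171 to 252 lower, the extremes being those without FGF10 replicate 1 and PBS replicate 2 and those without PBS replicate 3 and FGF10 replicate 2.

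Of the 126 genes named and fitted, 2 to 10 had another sign under each alternative. Among those at an unadjusted p under 0.05 these were *Plk1*, at -0.52 without the set term, -0.53 in DESeq2 without it and -0.050 in limma-voom, and *Ccnb1*, at -0.31 without the set term and -0.32 in DESeq2 without it, and the cause was not tested. Of the 47 lists, 5 had an absolute median above 0.25, and 5 to 9 did without 1 library, with 9 when PBS replicate 3 was left out. The mitosis median turned to -0.27 without the set term and -0.25 in DESeq2 without it, and cholesterol synthesis to -0.04 and -0.05. List medians kept their sign in 78.5% of list and alternative combinations. Setting the 5 list genes absent from 1 group to their bounds moved no median. Each bound keeps the direction of its gene, so this check could hardly have moved one. With CPM by total counts 23 of 24 leading genes kept the smallest permutation p, all but *Wdr61*. Replicate numbers are shared between the groups, and the deviations of same-numbered libraries correlated at 0.041, 0.053 and 0.076. Pairs of the same replicate set correlated at 0.040 to 0.093 and pairs of different sets at -0.086 to -0.028. Whether same-numbered libraries share more than a number was not tested. FGF10 replicates 1 and 2 correlated best with their own number and replicate 3 with PBS replicate 4. The replicate block gave 0 genes higher and 0 lower at an adjusted p under 0.05, with 162 and 178 at an unadjusted p under 0.05. Precision was lowest under 5 CPM, where no 95% interval lay within -1 and 1.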
